A study of Mus musculus with 12 samples.

Results

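The olfactory bulb of hGFAP transgenic mice was compared between 23 days after birth (P23) and 4 months of age. By their titles, 6 of the 12 expression arrays of the series were transgenic, 3 at P23 (arrays 5, 6 and 7) and 3 at 4 months (arrays 1, 2 and 8). All 6 came from mice of the inbred FVB/N strain that carried the hGFAP transgene, read here as human GFAP, and no other allele or treatment is named. The promoter that drives the transgene, the sex, the litter and any pooling of animals are not given in the labels. The remaining 6 arrays, 3 of wildtype FVB/N bulb at each age, gave the change with age without the transgene. Each array carries its own number and was treated as 1 sample, so p-values measure the spread between samples, which may be technical if arrays share an animal.

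GFAP, glial fibrillary acidic protein, is the main intermediate filament protein of mature astrocytes, and astrocytes raise it when they become reactive after injury or disease. An excess of GFAP in mouse astrocytes gives rise to protein aggregates known as Rosenthal fibres, the hallmark of the human leukodystrophy Alexander disease, in which GFAP itself is mutated. The olfactory bulb is rich in astrocytes and olfactory ensheathing glia, and it receives new inhibitory interneurons throughout life as neuroblasts that migrate in from the subventricular zone. Reactive astrocytes exchange signals with microglia, the resident macrophages of the brain, through cytokines and complement.

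Each value is the intensity of a probe set, a group of short oligonucleotides that reads 1 transcript, on a linear scale after the arrays were brought to the same median. Of 12422 probe sets that are not controls, 7453 had a mean over all 12 arrays above a signal of 689 and were tested with limma. They stood for 5664 of the 8251 genes that the array reads under a single symbol. A gene was called higher or lower where its Benjamini-Hochberg adjusted p over all 7453 probe sets was under 0.05, and changes are log2 differences, 4 months minus P23. Arrays of the same transgenic group correlated at 0.960 to 0.972 and arrays of different age at 0.926 to 0.941. Bulb neurons were well represented in all 6 transgenic arrays, with Gad1 (GABA synthesis) between 45032 and 56675, Th (dopamine synthesis) between 11059 and 13427 and Reln (mitral cells) between 15436 and 16783. Of the markers of tissue outside the bulb, Cnga2 (olfactory epithelium), Neurod6 (cortex) and Ttr (choroid plexus) were below the filter. Hba-a1 (blood) was above it, at 63021 to 128588 on the transgenic arrays. So were Omp (olfactory epithelium), at 4195 to 13081, and Tbr1 (cortex, but also bulb), at 1624 to 3371. Summed signal of the 8 tested red blood cell genes was 120448 to 197472 at P23 and 98095 to 110678 at 4 months in transgenic bulb. In wildtype bulb it was 162808 to 311550 and 101142 to 123421. Bacterial control RNAs, spiked in before hybridization, had a geometric mean signal of 18531 ± 1577 on transgenic P23 arrays (mean ± SD, n = 3) and of 14646 ± 810 on transgenic 4-month arrays. In wildtype the corresponding values were 16057 ± 905 for P23 and 17709 ± 762 for 4 months. Scaling the arrays to these controls moved the median change of all probe sets from -0.09 to 0.25, a shift of 0.34, so every fall reported here is a fall relative to the typical probe set. All 340 genes called higher were also called with that scaling, and 46 of the 434 genes called lower were. Because the scaling moves the transgenic changes upward, it cannot test the rises.

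Between P23 and 4 months the transgenic bulb gained transcripts of microglia and macrophages, complement, antigen presentation, interferon response, lysosomes and extracellular matrix, and, relative to the typical probe set, lost transcripts of migrating neuroblasts and of other neurons. At 4 months 433 probe sets (5.81% of those tested) had risen and 554 (7.43%) had fallen, which stood for 340 genes higher (6% of genes tested) and 434 lower (7.66%), 13.7% in either direction. The rises were the larger changes, since 141 of the higher probe sets but 30 of the lower ones moved by more than 2-fold. Without P23 array 5, or without P23 array 7, 326 probe sets were lower. In wildtype bulb over the same interval 19 genes were higher (0.335% of genes tested) and 36 lower (0.636%), 0.971% together. Of the 340 genes that rose in transgenic bulb, wildtype bulb gave 332 no call, 5 rose there too and 3 fell. Of the 434 that fell, 414 had no call in wildtype, 18 fell there too and 2 rose. A direct test of the difference between the 2 changes with age, transgenic minus wildtype, called 207 genes higher (3.65%) and 208 lower (3.67%). That test gave 263 probe sets higher (3.53%) and 281 lower (3.77%), and 1450 and 26 with bacterial control scaling.

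**Figure D1:**
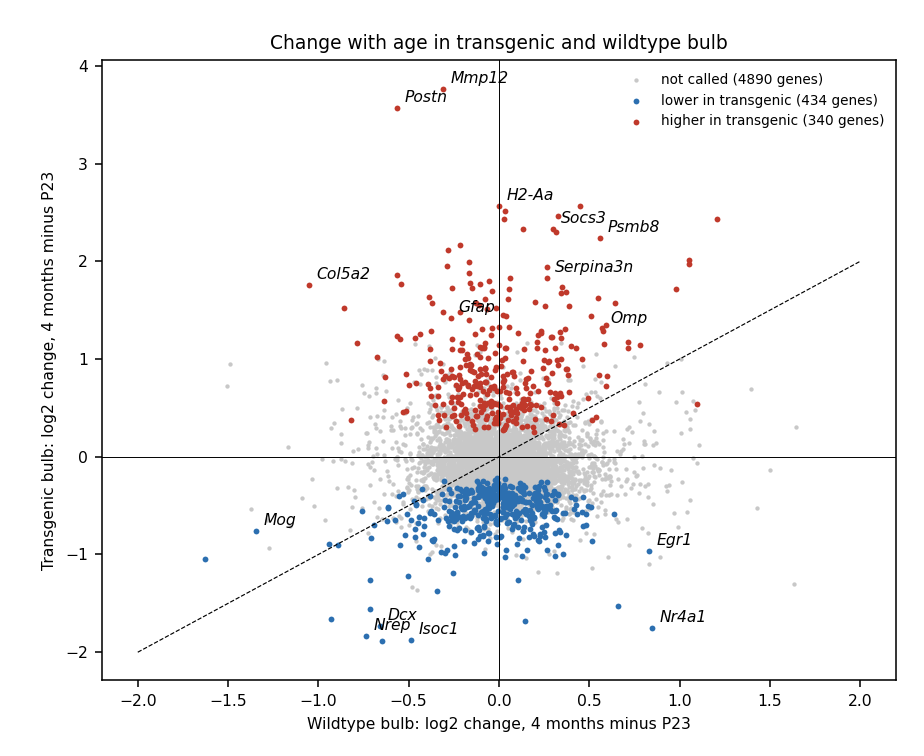
Each point is 1 of 5664 genes, with its log2 change from P23 to 4 months in wildtype bulb on the x axis and in transgenic bulb on the y axis, and the dashed line marks equal change. The 340 genes higher and 434 lower in transgenic bulb spread far along the y axis, with Mmp12 at 3.77 and Dcx at -1.73, while the same genes stay mostly within 1 unit of 0 along the x axis.

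Mmp12 and Postn led the rise. Mmp12, macrophage elastase, a metalloprotease secreted by activated macrophages, read 553, 607 and 525 on the P23 arrays and 9234, 6861 and 7008 on the 4-month arrays. The ages did not overlap, as in 338 of the 340 genes called higher. The change was 13.6-fold or 3.77 (SE 0.24, adjusted p = 1.35e-07) on the log2 scale. In wildtype bulb Mmp12 read 610 ± 120 at P23 and 504 ± 172 at 4 months (mean ± SD, n = 3), and the 2 changes with age differed by 4.08 (adjusted p = 6.25e-06). Postn, periostin, a matrix protein of fibroblasts and injured tissue, went from 1047, 1044 and 1072 to 14869, 11519 and 11541, a change of 11.9-fold or 3.57 (SE 0.18, adjusted p = 1.05e-08). At P23 its 3 transgenic arrays lay within the range of the wildtype ones, whose mean was 1037 ± 252 (SD, n = 3), and the 2 changes with age differed by 4.14 (adjusted p = 8.75e-07).

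The macrophage and microglia list, 38 genes on the array, of which 25 passed the filter on low signal, had 22 genes higher and none lower, against 6% of all genes tested. The shares of all genes tested, 6% higher and 7.66% lower, are the background for every list below. Because the filter uses the mean of all arrays, a gene that is high in a single group can pass through that group, so the counts without the filter are given too: 25 of 38 higher and none lower. The median change of the 25 was 1.54, beside -0.09 for all genes, and their summed signal went from between 104873 and 115324 at P23 to between 294237 and 307781 at 4 months. In wildtype bulb the summed signal was 58627 to 65855 at P23 and 57300 to 61786 at 4 months, and none of the 25 was called. The change with age was larger in transgenic than in wildtype bulb, by the test of the difference, for 17 of the 25. In whole tissue, more cells of a type and more RNA per cell cannot be told apart.

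Among the single microglial genes, Tyrobp (DAP12), the adaptor of many myeloid receptors, read 3049, 3151 and 2850 at P23 and 11988, 11993 and 11097 at 4 months, a change of 1.95 (SE 0.18, adjusted p = 3.61e-06). Mpeg1, the pore-forming perforin-2 of macrophages, read 1329, 2054 and 1607 and then 10742, 8690 and 8698, a change of 2.51 (SE 0.20, adjusted p = 1.26e-06). Neither gene overlapped between the ages, and wildtype changes were -0.29 and 0.03, with differences between genotypes of 2.24 (adjusted p = 7.35e-05) for Tyrobp and 2.48 (adjusted p = 0.000119) for Mpeg1. Lyz2, lysozyme, stood at 1749, 2169 and 2517 and rose to 9573, 8156 and 7768, a change of 2.0 (SE 0.28, adjusted p = 0.000289). Cd68, a glycoprotein of macrophage lysosomes, rose from 2423, 2220 and 2473 to 8657, 8260 and 7567, which is 1.78 (SE 0.13, adjusted p = 3.35e-07). The rise covered the receptors and surface proteins as well, with Csf1r (the receptor for the microglial growth factor CSF1) at 1.11 and Cx3cr1 (the fractalkine receptor) at 0.75. Coro1a (0.09), Spi1 (0.78) and Lcp1 (1.54) were the 3 tested genes with no call, the last with a change as large as the called ones but a wide spread. Genes named like these 5, to account for a small count or to show the span of a list, were chosen after their values were seen.

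Complement, the cascade that tags debris and synapses for removal, had 8 of 10 tested genes higher and none lower, with a median of 1.5, and 9 of 16 higher without the filter. The 3 chains of C1q, the recognition molecule of the classical pathway, rose together. C1qa read 13652, 14609 and 16535 at P23 and 45728, 45716 and 45422 at 4 months, a change of 1.62 (SE 0.11, adjusted p = 1.77e-07). C1qc changed by 1.55 (adjusted p = 6.48e-07) and C1qb by 1.52 (adjusted p = 6.18e-07), although a second and dimmer C1qb probe set gave 0.27 with an adjusted p of 0.358. Serping1, the C1 inhibitor, rose by 1.83 (adjusted p = 1.03e-05), and C3ar1, the receptor for the C3a fragment, by 1.70 (adjusted p = 0.000134). No wildtype change of these 5 genes was called. The 2 tested genes with no call were Clu (clusterin), at 0.23, and C5ar1, at 0.31. Of the 10 complement genes 5 stand in another list as well, among them the C1q chains in the microglial list.

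**Figure D2:**
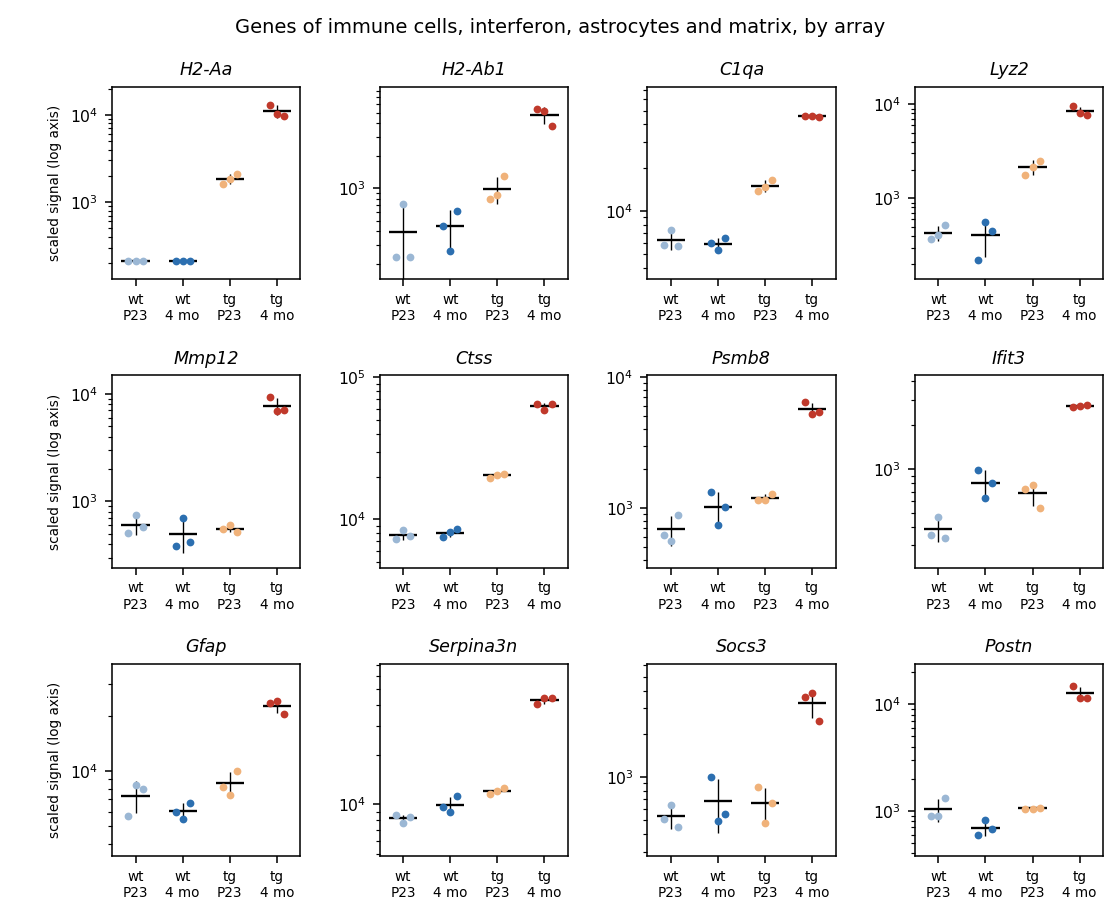
Scaled signal of 12 genes on a log axis, 1 point per array, with the mean (line) and SD (bar) of 3 arrays in wildtype (wt) and transgenic (tg) bulb at P23 and 4 months. In each panel the 3 transgenic arrays at 4 months lie above all other arrays, and H2-Aa is at the floor of 209 on all 6 wildtype arrays.

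Antigen presentation on class II molecules, through which macrophages and other professional cells show peptides to helper T cells, had 7 of 8 tested genes higher and none lower, with a median of 1.45. The other 8 of the 16 genes on the array were below the filter and none of them was called without it. H2-Aa, the class II alpha chain, read 1610, 1860 and 2119 at P23 and 13095, 10330 and 9749 at 4 months, a change of 2.57 (SE 0.19, adjusted p = 5.64e-07), while all 6 wildtype arrays sat at the floor of 209. H2-Ab1, the beta chain, went from 793, 864 and 1307 to 5434, 5181 and 3807, a change of 2.30 (SE 0.41, adjusted p = 0.00197). The invariant chain Cd74, which guides class II molecules to the endosome, went from 3482, 3545 and 4663 to 23840, 19247 and 19757, or 2.43 (SE 0.18, adjusted p = 5.64e-07). H2-DMa and H2-DMb1, the chaperone that loads peptide, rose by 1.29 and 1.13, and Ctss, cathepsin S, which trims the invariant chain, by 1.62 (adjusted p = 9.92e-09). Ciita, the transactivator of class II genes, changed by 0.30 with no call. The difference between genotypes was 2.40 (adjusted p = 5.75e-05) for Cd74 and 1.98 (adjusted p = 0.0543) for H2-Ab1. For H2-Aa it repeats the transgenic change, because the wildtype change was fixed at 0 by the floor.

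The class II promoters share a short element, the Y box, that is bound by the factor NF-Y and holds the letters ATTGG. Promoter entries of RefSeq (GRCm38.p6) were found for 5 of the 8 tested genes, and 4 of these 5 hold ATTGG on either strand in the 250 bases before the start site, as do 33.8% of all 32851 promoters. The units differ: a gene counted if any of its entries held the letters, while the 33.8% counts single entries. H2-DMa holds them only at its start site 2. The 160 bases before the start are printed for the 2 genes of the class II pathway with the letters nearest to the start, as the gene's own strand reads, with ATTGG in capitals.
H2-Aa, chr17:34287824-34287983, minus strand: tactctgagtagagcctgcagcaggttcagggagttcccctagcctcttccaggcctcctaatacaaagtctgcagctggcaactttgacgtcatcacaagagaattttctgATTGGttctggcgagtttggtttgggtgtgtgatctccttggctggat
H2-DMb1, chr17:34153031-34153190, plus strand: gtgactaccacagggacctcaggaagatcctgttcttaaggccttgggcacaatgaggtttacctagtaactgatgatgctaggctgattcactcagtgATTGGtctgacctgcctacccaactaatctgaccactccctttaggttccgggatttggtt
The letters begin at -48 in H2-Aa and at -61 in H2-DMb1, counted from the start site.

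Class I presentation, which every cell uses to show its own peptides to cytotoxic T cells, had 10 of 12 tested genes higher and none lower. The median was 1.02, and without the filter 11 of 15 were higher. B2m, the light chain, rose from 11068, 8976 and 10946 to 46839, 43573 and 32132, a change of 1.97 (SE 0.26, adjusted p = 0.000167). The heavy chain probe sets of H2-D1 and H2-K1 changed by 1.94 (adjusted p = 4.34e-09) and 1.74 (adjusted p = 1.45e-08), and 2 further probe sets of each rose too, by 1.51 to 2.06. These genes are near-identical copies of each other, so which of them gained transcript is uncertain. Psmb8, the immunoproteasome subunit that replaces a standard catalytic subunit under interferon, read 1156, 1157 and 1289 and then 6431, 5230 and 5387, a change of 2.24 (SE 0.22, adjusted p = 9.83e-06) that was larger than in wildtype by 1.68 (adjusted p = 0.00502). The list of 30 tested subunits of the standard proteasome gave no call in limma in either direction, with changes between -0.34 (Psmd14) and 0.25 (Psmd1), and before adjustment a p under 0.05 was reached by 0 in the higher and 3 in the lower direction. Of those 30, 9 were higher with bacterial control scaling, which shifted all probe sets up.

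Interferon-responsive genes, which cells switch on through STAT and IRF factors, had 12 of 16 tested genes higher and none lower, a median of 1.14 and, without the filter, 20 of 34 higher. Without P23 array 5 the count was 8 of 16. Ifit3, an interferon-induced antiviral protein, read 725, 777 and 539 at P23 and 2656, 2734 and 2750 at 4 months, a change of 2.01 (SE 0.24, adjusted p = 6.64e-05). Its wildtype change was 1.05 (adjusted p = 0.0555), and the difference between genotypes was not called, at 0.96 (adjusted p = 0.105). Gbp3, a guanylate-binding GTPase, rose by 1.72 (adjusted p = 0.000188) and Ifitm3, an interferon-induced membrane protein, by 1.58 (adjusted p = 1.57e-07), and both differed from wildtype, by 1.66 (adjusted p = 0.0071) and 1.38 (adjusted p = 5.75e-05). Irf8 (myeloid transcription factor), Irf1 and Irf9 rose by 1.06, 1.22 and 1.0 on the log2 scale. The 4 tested genes with no call were Ifitm2 (0.10), Irf7 (0.33), Socs1 (0.51) and Ifit2 (0.56). Over the list the difference between genotypes was called for 6 genes, all higher.

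The interferon-stimulated response element holds the letters GAAA, then any 2 bases, then GAAA again. It was looked for on both strands in the same 250 bases and counted in the same way: 2.98% of all promoters hold it, and 6 of the 14 interferon genes with a RefSeq entry do. Gbp3, Isg15, Irgm1 and Ifit3 were called higher, and Ifitm2 and Socs1 hold it with no call. The 4 that rose are printed with the letters in capitals. Gbp3 and Ifit3 carry them on the opposite strand, where they read as TTTC set apart by 2 bases, and in Gbp3, Isg15 and Irgm1 the matches overlap each other.
Gbp3, chr3:142559884-142560043, plus strand: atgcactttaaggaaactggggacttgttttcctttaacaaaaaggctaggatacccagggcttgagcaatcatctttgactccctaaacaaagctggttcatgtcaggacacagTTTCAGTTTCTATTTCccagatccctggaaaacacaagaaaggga
Isg15, chr4:156200819-156200978, minus strand: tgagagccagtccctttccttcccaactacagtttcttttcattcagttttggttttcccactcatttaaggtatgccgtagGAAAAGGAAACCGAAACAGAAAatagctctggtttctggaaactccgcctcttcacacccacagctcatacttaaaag
Irgm1, chr11:48871421-48871580, minus strand: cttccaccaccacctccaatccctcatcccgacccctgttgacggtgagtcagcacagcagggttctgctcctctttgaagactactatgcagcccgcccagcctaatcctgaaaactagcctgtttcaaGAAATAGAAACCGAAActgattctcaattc
Ifit3, chr19:34583369-34583528, plus strand: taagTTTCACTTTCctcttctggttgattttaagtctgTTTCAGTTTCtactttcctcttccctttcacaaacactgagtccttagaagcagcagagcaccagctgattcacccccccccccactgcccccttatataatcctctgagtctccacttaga
These matches are a description of the letters, and binding was not measured.

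Chemokines and cytokines were mostly low on the array, with 17 of 47 genes above the filter, of which 6 were higher and 2 lower, beside 6% and 7.66% of all genes. The higher count was 3 without P23 array 7 and 4 without any other transgenic array. Ccl2, which attracts monocytes, read 2571, 2290 and 2259 at P23 and 8000, 5823 and 4551 at 4 months, a change of 1.33 (SE 0.22, adjusted p = 0.00114), while all 6 wildtype arrays were at the floor. The wildtype change of Ccl2 was therefore fixed at 0, and its difference between genotypes repeats the transgenic change. Csf1, the growth factor of microglia, went from 3539, 2780 and 4061 to 6846, 6666 and 5675, a change of 0.90 (SE 0.17, adjusted p = 0.00294), against -0.10 in wildtype. The 2 lower genes were Cxcl12 (-0.84) and Cx3cl1 (-0.61), the neuronal ligand of the microglial receptor Cx3cr1, and with bacterial control scaling no gene of the list was lower. Of 43 markers of lymphocytes and granulocytes on the array 32 were below the filter. Of the 11 tested 1 was higher and 1 lower, 9.09% each way beside 6% and 7.66% of all genes. Igha, an antibody heavy chain, was higher at 1.64 (adjusted p = 0.0251), a call that was lost without P23 array 5 (1.17, adjusted p = 0.112) and without 4-month array 8 (1.26, adjusted p = 0.119). Thy1, which T cells share with neurons, was lower at -0.54 (adjusted p = 0.000693), and at -0.20 (adjusted p = 0.265) with bacterial control scaling. Cd4, Cd79a, Ms4a1 and Ighm changed by 0.08, 0.19, 0.31 and 0.43 with no call, and the summed signal of the 11 was 21891 to 26713 at P23 and 19456 to 24189 at 4 months.

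Lysosomal genes, the degradative machinery of phagocytes and all other cells, had 25 of 41 tested genes higher (61%, beside 6% of all genes) and none lower. Their median was 0.43. Without the filter 20 of 45 were higher, and leaving out any single transgenic array gave 17 to 19 of the 41. Ctsd, an aspartic protease, went from 22200, 24768 and 22477 to 60182, 65141 and 72772, a change of 1.51 (SE 0.08, adjusted p = 2.56e-08), and Ctsz, a carboxypeptidase, rose by 1.55 (adjusted p = 5.82e-06). Ctsb rose by 1.24, Ctsl by 0.77 and the membrane proteins Lamp1 and Lamp2 by 0.43 and 0.51. Acid hydrolases outside the cathepsins ranged widely, with Gusb at 1.31 and Hexa at 0.87 but Gaa at -0.40 and Glb1 at 0.22, the last 2 with no call. In wildtype none of the 41 was called, and the difference between genotypes was called for 17.

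**Figure D3:**
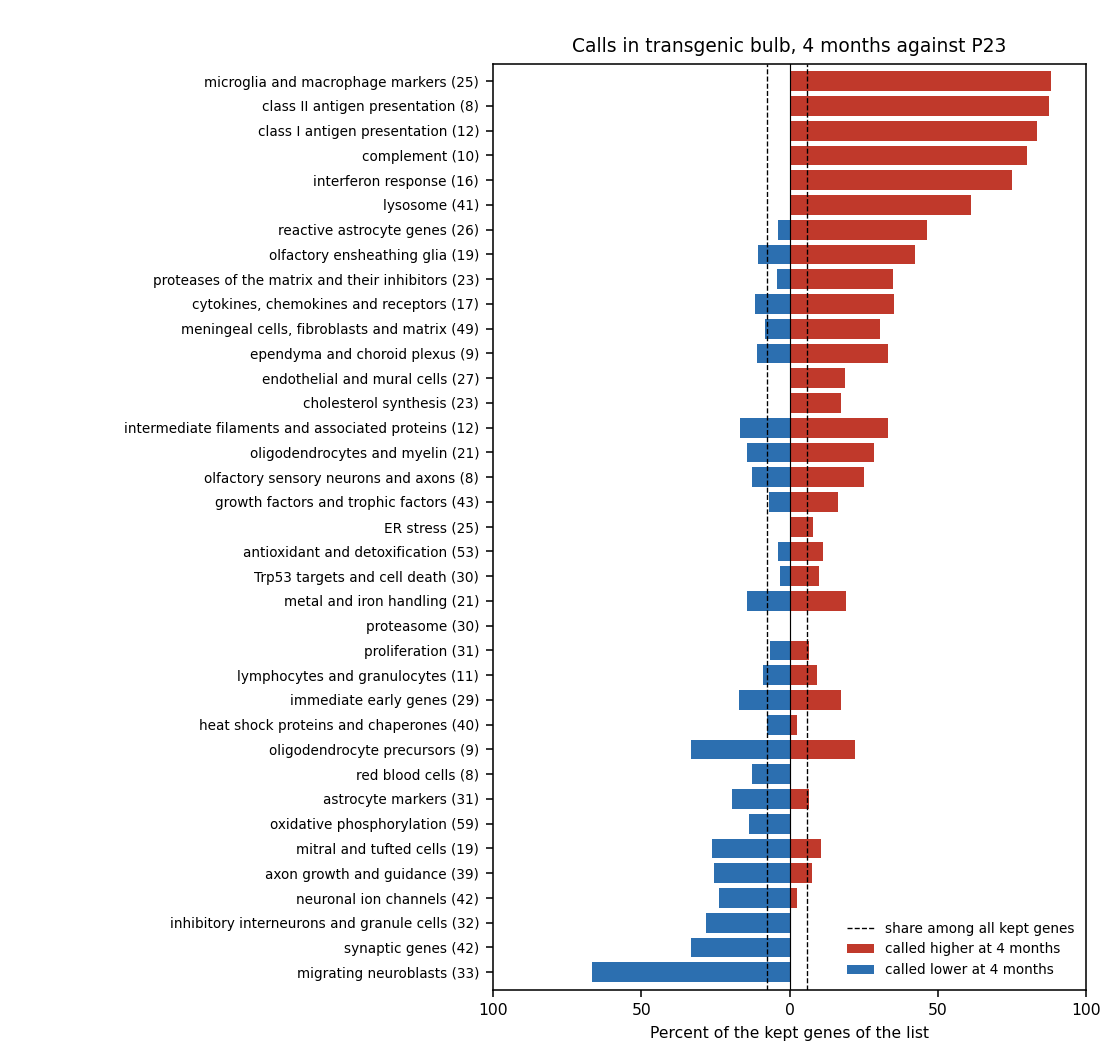
Bars show, for 37 gene lists with the number of tested genes in brackets, the percent called higher (to the right) and lower (to the left) at 4 months against P23 in transgenic bulb, and dashed lines mark the shares among all genes tested (6% and 7.66%). Microglia, antigen presentation, complement and interferon lists reach 75% to 88% higher, and migrating neuroblasts reach 66.7% lower. Only genes that passed the filter are counted, which a gene high in a single group can pass through that group. Without it 25 of 38 microglial, 9 of 16 complement, 7 of 16 class II, 11 of 15 class I and 20 of 34 interferon genes were higher. Among neuroblast genes 20 of 42 were then lower.

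Among genes known from reactive astrocytes, Gfap, Serpina3n, Osmr, Socs3 and S100a6 rose in whole bulb. Gfap read 8180, 7409 and 10068 at P23 and 23516, 24070 and 20549 at 4 months, a change of 2.67-fold or 1.42 (SE 0.15, adjusted p = 1.67e-05), and a second probe set rose by 0.92 (adjusted p = 0.00488). In wildtype bulb Gfap read 7347 ± 1452 at P23 and 6045 ± 631 at 4 months (mean ± SD, n = 3), and at P23 the transgenic mean of 8552 ± 1368 lay within 1 SD of the wildtype mean. On the second probe set the P23 means were 1947 ± 167 in transgenic and 1380 ± 276 in wildtype bulb (SD, n = 3), further apart than either SD. The probe sets are those of the mouse gene, and how far they read the human transgene was not tested. Serpina3n, a secreted protease inhibitor that marks reactive astrocytes, rose from 11562, 11999 and 12614 to 40320, 44224 and 43826, a change of 1.83 (SE 0.09, adjusted p = 9.92e-09). Osmr, the oncostatin M receptor, went from 2640, 2088 and 2590 to 10033, 8296 and 7258, or 1.80 (SE 0.17, adjusted p = 6.1e-06). Socs3, the feedback inhibitor of cytokine signalling through STAT3, went from 847, 479 and 654 to 3627, 3826 and 2449, or 2.33 (SE 0.31, adjusted p = 0.000146). S100a6, a calcium-binding protein, rose by 2.47 (adjusted p = 4.71e-08). For each of these 5 genes the change was larger than in wildtype, from 1.56 for Serpina3n to 2.14 for S100a6.

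Over the list of reactive astrocyte genes 12 of 26 tested were higher and 1 was lower (Ncan, -0.58, a call that was lost without P23 array 5 or 4-month array 8), so 13 had no call. With bacterial control scaling 19 were higher and none lower. Without the filter 14 of the 40 genes on the array were higher and 1 lower. The median of the 26 was 0.65, and 15 of the 26 stand in other lists too. Cp (ceruloplasmin, a ferroxidase) read 4272, 3875 and 4213 at P23 and 7470, 7656 and 5929 at 4 months, which do not overlap, but at 0.76 (adjusted p = 0.0784) it had no call. Anxa3, at 6439, 5950 and 5741 and then 9117, 9943 and 6294, overlapped between the ages, at 0.46 (adjusted p = 0.142). Bacterial control scaling gave both a call, at 1.10 (adjusted p = 0.00709) for Cp and 0.80 (adjusted p = 0.012) for Anxa3. Both genes already stood far above wildtype at P23, where Cp was 620 ± 246 and Anxa3 752 ± 105 (mean ± SD, n = 3). Timp1, the inhibitor of metalloproteases, changed by 0.25 (adjusted p = 0.554) and Lcn2, lipocalin 2, by 0.08 (adjusted p = 0.844). Vim (vimentin) had a mean below the filter and was not tested, at 600, 403 and 578 and 547, 546 and 706 on the transgenic arrays.

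Of 31 tested astrocyte markers 2 were higher, Gfap and the water channel Aqp4 at 0.45 (adjusted p = 0.00499), and 6 were lower. These are 6.45% and 19.4%, beside 6% and 7.66% of all genes. The median was -0.22 and became 0.12 with bacterial control scaling, where 8 were higher and none lower. Without P23 array 7 the lower count was 3, and without P23 array 5 it was 4. Ntsr2, the low-affinity neurotensin receptor of astrocytes, read 6456, 7685 and 6776 and then 5414, 3893 and 4570, a change of -0.60 (adjusted p = 0.00375), and with bacterial control scaling -0.26 (adjusted p = 0.188). Gja1, connexin 43, the gap junction protein that couples astrocytes, changed by -0.24 (adjusted p = 0.222) and Slc1a2, the glutamate transporter GLT-1, by -0.96 (adjusted p = 0.0932), neither of which was called, and a second Gja1 probe set gave -0.86 (adjusted p = 0.0861). Slc1a2 read 1569, 1452 and 1659 at P23 and 1210, 1218 and 347 at 4 months, and without array 8, the lowest, the change was -0.36 (adjusted p = 0.252). Without 4-month array 1 or 2 it was -1.26 or -1.27 and was called (adjusted p = 0.0455 for each). The summed signal of the 31 markers was 649242 to 688192 at P23 and 654760 to 668845 at 4 months.

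Stress defence genes gave calls in both directions and many without a call. Hspb8, a small heat shock protein, read 4498, 4321 and 5421 and then 4371, 4903 and 4396, a change of -0.05 (adjusted p = 0.853), against 1899 ± 314 and 1902 ± 249 in wildtype (mean ± SD, n = 3). Mt1, a metallothionein that binds zinc and copper, read 63160, 64513 and 58581 at P23 and 45066, 44885 and 45104 at 4 months. No array overlapped between the ages and the change was -0.46 (SE 0.10, adjusted p = 0.00756), which with bacterial control scaling was -0.13 (adjusted p = 0.537). Mt2, a second metallothionein, was lower at -0.42 (adjusted p = 0.0386) and with that scaling stood at -0.08 (adjusted p = 0.698), and leaving out any transgenic array other than P23 array 6 ended its call, with an adjusted p of 0.053 to 0.166. Cryab, a small heat shock protein that binds filaments, rose by 0.60 (adjusted p = 0.0235), a call that was lost without P23 array 5 or 6 or 4-month array 1 or 2, with an adjusted p of 0.0526 to 0.0944. Hmox1 (haem oxygenase), Nqo1 (quinone reductase) and Ephx1 (epoxide hydrolase), targets of the antioxidant factor NRF2, changed by 0.31 (adjusted p = 0.0769), 0.15 (adjusted p = 0.747) and 0.69 (adjusted p = 0.153) with no call. Bacterial control scaling gave a call to Hmox1, at 0.65 (adjusted p = 0.00259), and to Ephx1, at 1.03 (adjusted p = 0.0218). Ephx1 did rise in wildtype, by 1.40 (adjusted p = 0.0459), from 339 ± 103 to 942 ± 425, while the transgenic arrays went from 2957, 3169 and 3824 to 4726, 6308 and 5084. Of 53 antioxidant and detoxification genes tested 6 were higher and 2 lower, beside 6% and 7.66% of all genes, with a median of 0.11, and with bacterial control scaling 17 were higher and none lower. Without P23 array 7 the higher count was 2, and it was 3 without any other transgenic array or without wildtype 4-month array 10. Aldh1a1, a retinaldehyde dehydrogenase, moved most, from 13783, 13222 and 15362 to 36635, 34594 and 33582, a change of 1.31 (SE 0.10, adjusted p = 9.85e-07). Heat shock proteins and chaperones had 1 of 40 higher (2.5%) and 3 lower (7.5%), beside 6% and 7.66% of all genes. With bacterial control scaling 6 of the 40 were higher and none lower. Hspa8, the constitutive HSC70, was among the lower ones at -0.45 (adjusted p = 0.00455), and with that scaling at -0.12 (adjusted p = 0.45). ER stress genes had 2 of 25 higher (8%, beside 6% of all genes), Pdia4 at 0.70 (adjusted p = 0.00134) and Psat1 at 0.46 (adjusted p = 0.00359), and none lower, and with bacterial control scaling 9 were higher. Fth1, ferritin heavy chain, rose by 0.54 (adjusted p = 0.000104) on its brightest probe set, while a second probe set gave -0.32 with an adjusted p of 0.0695.

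Matrix and vessel genes rose in part. Of 49 tested genes of meningeal cells, fibroblasts and matrix 15 were higher (30.6%) and 4 lower (8.16%), beside 6% and 7.66% of all genes. Their median was 0.29, and for 17 of the 49 the transgenic change was larger than the wildtype one. Without the filter 14 of 62 were higher and 2 lower. Col5a2, a fibrillar collagen chain, read 2249, 2542 and 3164 and then 10456, 8057 and 8261, a change of 1.76 (SE 0.16, adjusted p = 3.37e-06), while in wildtype it fell by 1.05 on the log2 scale (adjusted p = 0.00713). Gsn, gelsolin, an actin-severing protein, took the same opposite course, with 0.58 (adjusted p = 0.000989) in transgenic and -0.63 (adjusted p = 0.00713) in wildtype bulb. Col15a1, a basement membrane collagen, rose by 1.88 (adjusted p = 0.000421). Col3a1 changed by 0.95 (adjusted p = 0.0959) with no call, and by 1.28 (adjusted p = 0.0133) with bacterial control scaling, while its difference between genotypes was 2.43 (adjusted p = 0.00904). Of the 49 genes 28 were higher and 1 lower with bacterial control scaling, and the lower count was 1 without P23 array 7 or 4-month array 8 and 2 without P23 array 5 or 4-month array 1. The vascular genes Mcam and Vcam1, both adhesion molecules, rose by 1.28 (adjusted p = 9.78e-05) and 1.10 (adjusted p = 0.000527). Endothelial genes without a call included Pecam1 (-0.33), Flt1 (0.22) and Slc2a1 (0.19). On that list 5 of 27 were higher, 18.5% beside 6% of all genes. Without the filter 6 of 51 were higher, with a median of -0.004. Itih5, which binds hyaluronan, rose from 2336, 2282 and 2690 to 14117, 11011 and 11822, a change of 2.33 (SE 0.12, adjusted p = 1.41e-08).

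Ensheathing glia, the cells that wrap the olfactory axons, had 8 of 19 tested markers higher and 2 lower, beside 6% and 7.66% of all genes, and 14 higher and 1 lower with bacterial control scaling. Their median was 0.40, with 14 changed upward and 5 downward. Before adjustment a limma p under 0.05 was reached by 10 in the higher and 3 in the lower direction. Without the filter 8 of 22 were higher and 2 lower. Of the 19, 17 are shared with other lists. Aqp1, a water channel, read 588, 875 and 917 and then 4619, 4049 and 5292, a change of 2.57 (SE 0.29, adjusted p = 3.91e-05). Pmp22, a myelin protein of peripheral-type glia, rose by 1.58 (adjusted p = 2.77e-06) and Matn2, a matrilin of the matrix, by 1.16 (adjusted p = 0.00072). Omp, the marker protein of mature olfactory sensory neurons whose axons end in the bulb, read 4195, 5441 and 6318 and then 12963, 13081 and 13076, a change of 1.31 (SE 0.17, adjusted p = 0.000104), against 0.57 (adjusted p = 0.146) in wildtype. S100a5, another gene of these neurons, rose by 0.73 (adjusted p = 0.000249) in transgenic and by 0.60 (adjusted p = 0.0137) in wildtype bulb. For neither gene was the difference between genotypes called, at 0.74 (adjusted p = 0.0698) for Omp and 0.13 (adjusted p = 0.626) for S100a5. The list of olfactory sensory neuron genes had 8 tested, 2 higher (25%) and 1 lower (12.5%), beside the same shares of all genes. Of the 8, 3 changed upward and 5 downward. Their median was -0.29, beside -0.09 for all genes, and 0.04 with bacterial control scaling. Before adjustment a limma p under 0.05 was reached by 2 in the higher and 4 in the lower direction. The lower call was lost when any single transgenic array was left out. Its summed signal was 43858 to 45767 at P23 and 51249 to 56279 at 4 months.

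Of the 37 lists, migrating neuroblasts had the highest share of lower genes. Of 33 tested genes 22 were lower and none higher, against 7.66% of all genes, with a median of -0.66, which is 0.57 below the median of all genes. Bacterial control scaling shifts all changes by nearly the same amount, so it cannot test that distance. Bacterial control scaling left 17 of the 33 lower, with a median of -0.32. In wildtype 7 of the 33 were lower with a median of -0.25, and the transgenic fall was larger than the wildtype one, by the test of the difference, for 12. The summed signal was 631850 to 660134 at P23 and 406775 to 455572 at 4 months in transgenic bulb, and 690599 to 736847 and 544732 to 603878 in wildtype.

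Dcx, doublecortin, the microtubule protein that marks migrating neuroblasts, read 18269, 18101 and 16756 at P23 and 5760, 4942 and 5314 at 4 months. Between the ages there was no overlap, as in 433 of the 434 genes called lower. The change was 3.32-fold lower or -1.73 (SE 0.08, adjusted p = 9.92e-09). In wildtype bulb Dcx read 20317 ± 1069 at P23 and 12863 ± 760 at 4 months (mean ± SD, n = 3), a change of -0.66 (adjusted p = 0.00304), and the difference between genotypes was -1.07 (adjusted p = 7.94e-05). Sox11, a transcription factor of young neurons, read 17334, 16584 and 16836 and then 5699, 6452 and 5172, a change of -1.56 (SE 0.10, adjusted p = 1.36e-07), with a second probe set at -1.78. It too fell in wildtype, with -0.71 on the log2 scale, and the difference between genotypes was -0.84 (adjusted p = 0.00289), a call that bacterial control scaling ended. Nrep, a neuronal regeneration protein, went from 22496, 24437 and 24168 to 8165, 7100 and 5101, a change of -1.83 (SE 0.14, adjusted p = 5.64e-07). Dpysl3, Crmp1 and Stmn1, which steer microtubules in growing axons, changed by -1.22 (adjusted p = 4.62e-05), -1.0 (adjusted p = 8.59e-07) and -0.75 (adjusted p = 7.53e-07). Cd24a, a surface glycoprotein of neuroblasts, changed by -0.90 (adjusted p = 0.000187) in transgenic and -0.89 (adjusted p = 0.00404) in wildtype bulb, with a difference of -0.01 (adjusted p = 0.98). Each of these 7 genes was still called lower with bacterial control scaling, from -1.49 (adjusted p = 1.88e-06) for Nrep to -0.41 (adjusted p = 0.0103) for Stmn1. Of 31 tested genes of proliferation 2 were higher, Ccnd1 at 1.2 (adjusted p = 0.000236) and Cdc20 at 0.53 (adjusted p = 0.042), and 2 lower, Stmn1 and Tubb5, which is 6.45% each way beside 6% and 7.66% of all genes. The Cdc20 call was lost without P23 array 5 or 6, any 4-month array, or wildtype 4-month array 3 or 10, with an adjusted p of up to 0.152. Tubb5, at -0.33 (adjusted p = 0.00982), stood at 0.01 (adjusted p = 0.958) with bacterial control scaling, where 5 of the list were higher and 1 lower. A second Ccnd1 probe set gave 0.86 (adjusted p = 0.233). The summed signal of the list was 160609 to 162809 at P23 and 137385 to 146348 at 4 months, which do not overlap. In wildtype bulb it was 168167 to 173249 and 145550 to 154212, which do not overlap either. The median transgenic change of the 31 genes was 0.08, and 18 of them changed upward.

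**Figure D4:**
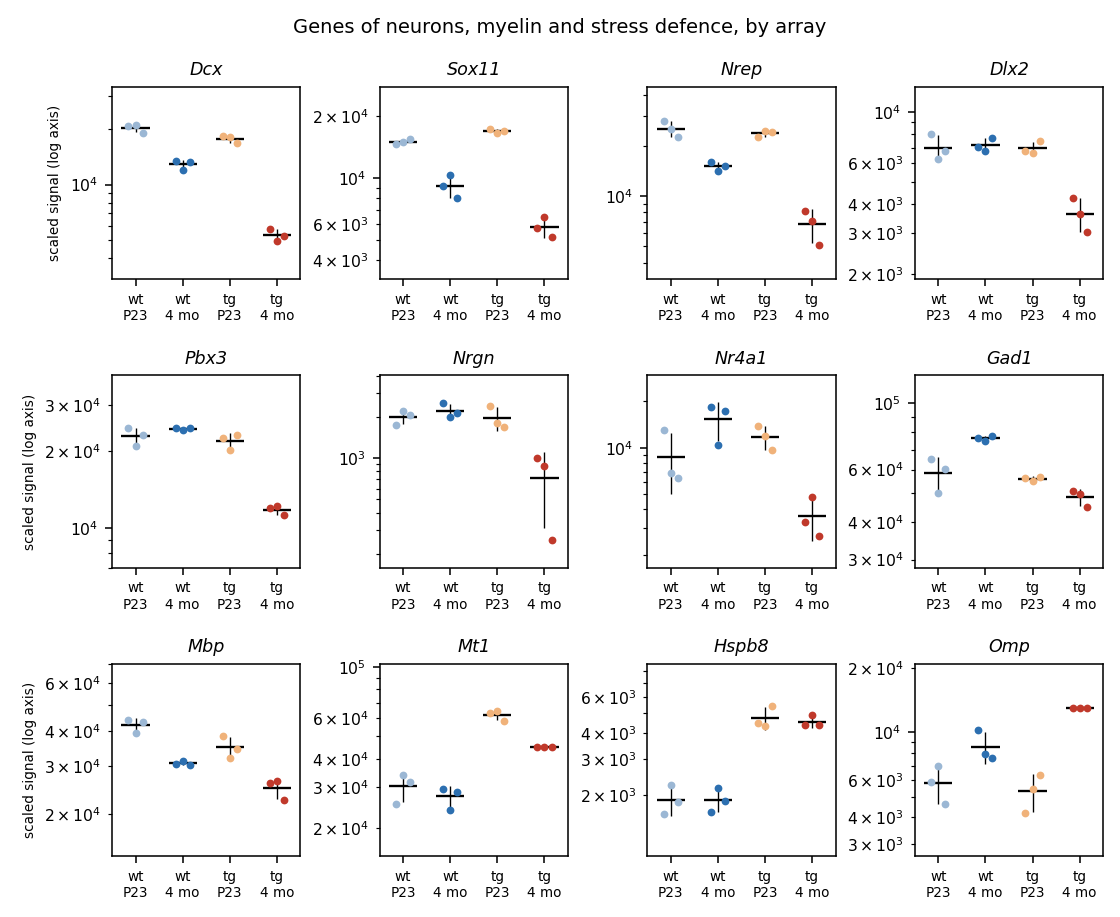
Scaled signal of 12 genes on a log axis, 1 point per array, with the mean (line) and SD (bar) of 3 arrays per group. Dcx, Sox11, Nrep, Dlx2, Pbx3, Nrgn and Nr4a1 have their 3 lowest arrays in transgenic bulb at 4 months, Hspb8 and Mt1 are high in transgenic bulb at both ages, and Omp is highest in transgenic bulb at 4 months.

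Inhibitory interneuron and granule cell genes, the largest neuron class of the bulb, had 9 of 32 tested lower (28.1%, beside 7.66% of all genes) and none higher. Their median was -0.27, beside -0.09 for all genes. Without P23 array 7 the lower count was 5, and without 4-month array 8 it was 6. Dlx2, a homeodomain factor of forebrain interneurons, read 6814, 6661 and 7497 and then 4241, 3635 and 3041, a change of -0.95 (SE 0.13, adjusted p = 0.000175), with 0.04 in wildtype. Pbx3 read 22355, 20117 and 23088 and then 11959, 12219 and 11199, a change of -0.89 (SE 0.08, adjusted p = 3.49e-06), and its 2 other probe sets fell by 1.0 and 0.51. Pbx3 differed from wildtype by -0.99 (adjusted p = 9.13e-05). The transmitter genes had no call. Gad1 read 56338, 54941 and 56675 and then 50762, 49537 and 45032, a change of -0.21 (adjusted p = 0.119), and Th 11059, 11330 and 13427 and then 11086, 11690 and 11633, a change of -0.05 (adjusted p = 0.805). Gad1 rose in wildtype, at 0.39 (adjusted p = 0.0442), and its difference between genotypes was -0.60 (adjusted p = 0.00713), a call that bacterial control scaling ended. With that scaling 4 of the 32 genes were lower and 2 higher, and Dlx2 stood at -0.62 (adjusted p = 0.00359) and Pbx3 at -0.55 (adjusted p = 0.00061).

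Synaptic genes had 14 of 42 tested lower (33.3%, beside 7.66% of all genes) and none higher. Their median was -0.31, beside -0.09 for all genes, and in wildtype 1 was higher with a median of 0.07. Bacterial control scaling left 1 lower and 1 higher. The lower count was 7 without P23 array 5 and 9 without P23 array 7 or 4-month array 1. Nrgn, neurogranin, a postsynaptic protein that binds calmodulin, read 2404, 1806 and 1695 and then 998, 881 and 254, a change of -1.68 (SE 0.38, adjusted p = 0.00849), and -1.34 (adjusted p = 0.0145) with that scaling. Its lowest array was the 4-month array 8, and without it the change was -1.05 (adjusted p = 0.00313). Gria3, an AMPA receptor subunit, changed by -0.71 (adjusted p = 0.00741), against 0.46 in wildtype, with a difference of -1.17 (adjusted p = 0.00503). Gria3 stood at -0.37 (adjusted p = 0.111) with bacterial control scaling. Syt1, the calcium sensor of synaptic vesicles, changed by -0.38 (adjusted p = 0.143), and its arrays overlapped between the ages. Neuronal ion channels had 10 of 42 lower (23.8%, beside 7.66% of all genes) and 1 higher (2.38%, beside 6%). Their median was -0.31, and 3 were lower and 3 higher with bacterial control scaling. Without P23 array 5, 6 channels were lower. Cacna1g, a T-type calcium channel, changed by -1.01 (adjusted p = 0.000447), or -0.68 (adjusted p = 0.00903) with that scaling. Kcna1, a potassium channel of axons and the 1 gene higher, changed by 0.59 (adjusted p = 0.00451). Of 59 tested genes of oxidative phosphorylation 8 were lower, 13.6% beside 7.66% of all genes, with a median of -0.18, and with bacterial control scaling none was lower and 4 were higher. The lower count of that list was 2 without P23 array 7, 3 without 4-month array 8 and 4 without P23 array 5 or 4-month array 1 or 2. The summed macrophage signal rose on the same 4-month arrays, and its part in the falls of neuronal genes was not tested.

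Activity-regulated genes split. Nr4a1, an orphan nuclear receptor induced by neuronal activity, read 13890, 11867 and 9690 at P23 and 3276, 4793 and 2653 at 4 months, a change of -1.75 (SE 0.28, adjusted p = 0.00082). In wildtype it changed by 0.85 (adjusted p = 0.21), and the genotypes differed by -2.60 (adjusted p = 0.00124). Egr1, a zinc finger factor that responds to synaptic input, read 16290, 13341 and 11771 and then 5617, 8666 and 7034, a change of -0.97 (SE 0.20, adjusted p = 0.00609), with a difference between genotypes of -1.80 (adjusted p = 0.00182). Both remained lower with bacterial control scaling, at -1.42 (adjusted p = 0.0012) and -0.63 (adjusted p = 0.0291). Ier3, an early gene tied to stress and survival, and Cebpd, a factor of the acute phase response, moved the other way, by 1.35 (adjusted p = 1.3e-05) and 1.09 (adjusted p = 2.93e-05). Of 29 early genes tested 5 were higher and 5 lower, beside 6% and 7.66% of all genes, and 11 higher and 2 lower with bacterial control scaling. Without P23 array 5 or 7, or 4-month array 1 or 2, 2 were higher. Fos and Junb, at -0.48 and -0.26, had no call.

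Myelin genes moved apart from each other. Mbp, myelin basic protein, read 38431, 32032 and 34418 and then 25957, 26413 and 22473, a change of -0.49 (SE 0.08, adjusted p = 0.00149), and in wildtype it changed by -0.46 (adjusted p = 0.0205). Mog, a late myelin glycoprotein, changed by -0.76 (adjusted p = 0.0038) in transgenic and by -1.34 (adjusted p = 0.000712) in wildtype bulb. Bacterial control scaling ended both transgenic calls, at -0.15 (adjusted p = 0.302) for Mbp and -0.42 (adjusted p = 0.108) for Mog, and a second Mbp probe set gave -0.28 (adjusted p = 0.201). Apod and Ndrg1, also made by oligodendrocytes, rose by 0.97 (adjusted p = 0.000156) and 1.0 (adjusted p = 6.79e-05). Of 21 tested genes 6 were higher and 3 lower in transgenic bulb, beside 6% and 7.66% of all genes, and 10 higher and none lower with bacterial control scaling. In the wildtype arrays 7 were lower and none higher. Ptprz1, a receptor phosphatase of glial precursors, gave -1.38 (adjusted p = 1.09e-05) on its brightest probe set and -0.07 (adjusted p = 0.758) on another, while the remaining probe set gave -1.2 (adjusted p = 0.0102).

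The largest falls outside these lists belonged to Myh7 and Isoc1. Isoc1, an isochorismatase-like enzyme, read 11193, 9810 and 15438 and then 2764, 3337 and 3725, a change of -1.87 (SE 0.20, adjusted p = 1.75e-05), with -0.49 in wildtype and a difference of -1.39 (adjusted p = 0.00746). Myh7, a slow myosin heavy chain, read 1189, 1610 and 1079 and then 547, 209 and 355, with array 2 at the floor, a change of -1.89 (SE 0.34, adjusted p = 0.002). Efnb2, ephrin B2, a membrane ligand in axon guidance and vessels, fell in both genotypes, with -1.26 (adjusted p = 4.17e-06) in transgenic and -0.71 (adjusted p = 0.0112) in wildtype bulb. With bacterial control scaling the transgenic changes of Isoc1, Myh7 and Efnb2 were -1.54 (adjusted p = 2.83e-05), -1.63 (adjusted p = 0.00394) and -0.92 (adjusted p = 0.000386). Rragd, a GTPase that links nutrients to lysosomal signalling, went opposite ways, with -0.51 (adjusted p = 0.00576) in transgenic and 0.49 (adjusted p = 0.0442) in wildtype bulb and a difference of -1.0 (adjusted p = 0.00111). Its transgenic change was -0.17 (adjusted p = 0.324) with bacterial control scaling.

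**Figure D5:**
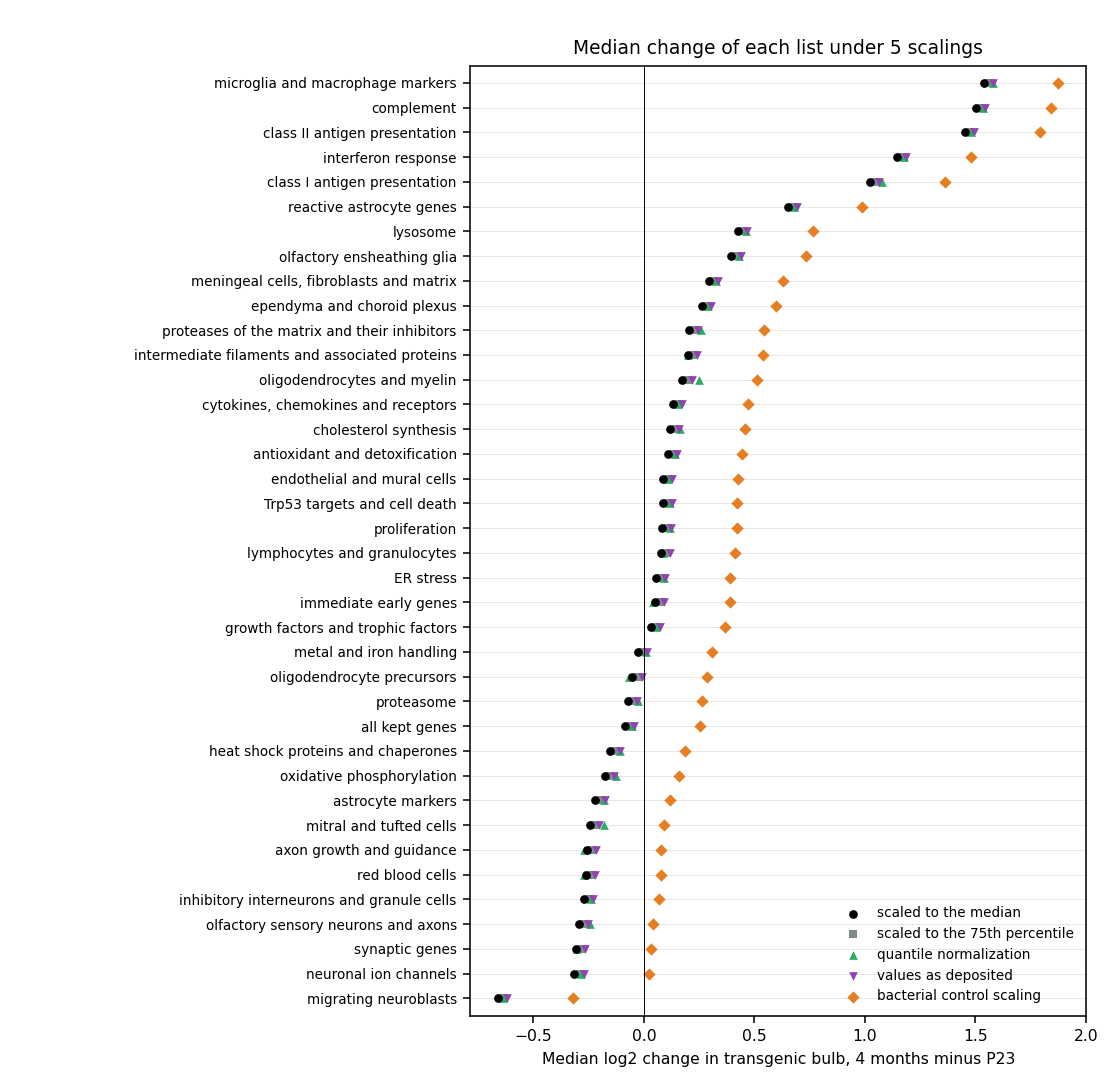
Each row is a gene list or all tested genes, and each mark the median log2 change from P23 to 4 months in transgenic bulb under 1 of 5 ways of scaling the arrays. Bacterial control scaling lies about 0.34 to the right of median scaling in every row, so it leaves the distances between rows nearly unchanged. There the microglial, complement, antigen presentation and interferon lists stay far above the median of all genes (0.25), and the neuroblast list stays below 0. Cytokines (0.47) and lymphocytes and granulocytes (0.41) lie nearer to that median.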

How the data were processed

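The deposited values were probe set intensities on a linear scale, 1 column per array, which the authors had brought to a common trimmed mean: leaving out 2% of values at each end, every array averaged 2501.2 to 2501.3. Which software summarised the probes was not given by the labels. Array medians still ran from 1092.4 to 1217.0, so each array was scaled to a common median, values under the 20th percentile (209) were set to it, and log2 was taken. Probe sets with a mean over the 12 arrays above the 40th percentile (signal 689) were fitted with limma 3.58.1 in R 4.3.3, with 1 mean per group (8 residual degrees of freedom), a trended prior and Benjamini-Hochberg adjustment at 0.05. The script was tested on simulated data. The 3 arrays per group limit the precision. A gene was its probe set of highest mean. Of the probe sets 10833 carry 1 symbol, 396 several and 1193 none, and those with several were not named. The named genes were a fixed set of genes of known role, the 15 largest rises and 15 largest falls among called genes whose arrays did not overlap between the ages, up to 4 called members of each list by size of change, and the leading genes by difference between genotypes and by opposite or same call in wildtype. The members and the gene lists were chosen with earlier results of these data known. Other scalings, floors, filters, variance models, probe set rules and fits without each array were run as alternatives. Promoter sequences are from RefSeq (GRCm38.p6). Figures were drawn with matplotlib 3.10.9 in Python 3.11.15.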

Additional observations from a re-analysis of the deposited data

Results flagged for a closer look

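The change from P23 to 4 months differed between transgenic and wildtype bulb for 263 probe sets in the higher and 281 in the lower direction, by limma's test of the difference between the 2 changes. Among the 168 named genes that were tested 94 passed, beside 3.65% higher and 3.67% lower of all genes. Some of the 168 were chosen by this test and most by their transgenic change, so their count is no measure of how common such differences are. Each value is the transgenic log2 change minus the wildtype one. For H2-Aa and Ccl2 all 6 wildtype arrays were at the floor, so their values repeat the transgenic change. Differences of 2 or more were Postn 4.14, Mmp12 4.08, Col5a2 2.81, H2-Aa 2.57, Mpeg1 2.48, Col3a1 2.43, Capn1 2.42, Cd74 2.40, H2-M3 2.38, Tyrobp 2.24, Itih5 2.2, Lyz2 2.16, S100a6 2.14, Aqp1 2.12, Col15a1 2.04, Socs3 2.03. Those from 1.5 up to 2 were Ctsh 1.99, Cd68 1.94, Osmr 1.85, Serping1 1.77, C3ar1 1.74, Pmp22 1.70, C1qa 1.70, Gfap 1.68, Psmb8 1.68, H2-D1 1.67, C1qc 1.66, Gbp3 1.66, Mcam 1.66, Ctsd 1.57, Ctss 1.57, Serpina3n 1.56, C1qb 1.54. Those from 1 up to 1.5 were Ccnd1 1.46, Chl1 1.39, H2-K1 1.39, Ifitm3 1.38, Matn2 1.37, Ccl2 1.33, Cebpd 1.30, Vcam1 1.30, Ctsz 1.29, Cd34 1.28, Gsn 1.21, Grn 1.21, Col4a1 1.2, Phlda3 1.18, Matn4 1.13, Nes 1.09, Csf1 1.0. Smaller ones in the same direction were Scd1 0.98, Aldh1a1 0.94, Nrp1 0.93, Tnfrsf1a 0.91, Dkk3 0.90, Pdia4 0.85, Igfbp2 0.77, Ier3 0.76, Ndrg1 0.75, Apod 0.69, Aqp4 0.63, Srebf1 0.56, Psat1 0.47, Fth1 0.37. In the other direction they were Nr4a1 -2.60, C2cd2 -2.19, Egr1 -1.80, Isoc1 -1.39, Amy1 -1.38, Ccdc88a -1.33, Slc1a1 -1.23, Nr4a2 -1.23, Hnrnpul2 -1.22, Gria3 -1.17, Cacna1g -1.14, Nrep -1.09, Dcx -1.07, Ptprz1 -1.03, Rragd -1.0, Dlx2 -0.99, Pbx3 -0.99, Gng4 -0.99, Atp2b2 -0.92, Syt1 -0.90, Sox11 -0.84, Crmp1 -0.76, Ina -0.74, Btg1 -0.73, Dpysl3 -0.71, Ntsr2 -0.70, Gad1 -0.60, Thy1 -0.60, Stmn1 -0.52, Dnajb6 -0.39. With bacterial control scaling, which moved these differences upward and so cannot test the higher ones, all 64 of the higher and 11 of the 30 lower ones passed. Other tested probe sets of Nrp1 (-0.17), Fth1 (-0.24), Ptprz1 (0.20), Tnfrsf1a (0.28) and Ccnd1 (0.40) did not pass (adjusted p = 0.381 to 0.843). Those of C1qb (0.84), Cd34 (1.16), Dnajb6 (-0.46) and Hnrnpul2 (-0.42), and further ones of H2-K1 (0.87) and Ptprz1 (-1.33), kept the sign without a call. Those of Aqp4, Gfap, H2-D1, Ina, Ndrg1, Nr4a2, Pbx3, Scd1, Sox11 and Vcam1 passed, as did another of H2-K1.

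For 72 of the 94 the call was kept without each array in turn, and for 22 it was lost without at least 1 array. For each of these, the fit with the highest adjusted p is given. Without transgenic 4-month array 1 the difference was 1.12 for Ccl2 (adjusted p = 0.0723), 0.95 for Csf1 (adjusted p = 0.0509), 0.68 for Ier3 (adjusted p = 0.0768). Without transgenic P23 array 5 the difference was 1.79 for Ctsh (adjusted p = 0.0795), -0.76 for Syt1 (adjusted p = 0.0735). Without transgenic P23 array 7 the difference was 0.65 for Apod (adjusted p = 0.0779), -0.68 for Btg1 (adjusted p = 0.0621), -1.20 for Ccdc88a (adjusted p = 0.0795), 1.18 for Cd34 (adjusted p = 0.0564), 0.84 for Dkk3 (adjusted p = 0.0563), 0.81 for Nrp1 (adjusted p = 0.0911). Without wildtype 4-month array 10 the difference was 2.06 for Capn1 (adjusted p = 0.102), -0.39 for Dnajb6 (adjusted p = 0.0975), -0.66 for Ntsr2 (adjusted p = 0.0561), 0.83 for Tnfrsf1a (adjusted p = 0.0589). Without wildtype 4-month array 3 the difference was -0.62 for Dpysl3 (adjusted p = 0.105), -1.11 for Nr4a2 (adjusted p = 0.0828), 0.43 for Psat1 (adjusted p = 0.0924), 0.86 for Scd1 (adjusted p = 0.0688). Without wildtype 4-month array 9 the difference was 0.33 for Fth1 (adjusted p = 0.0732). Without wildtype P23 array 12 the difference was -1.87 for C2cd2 (adjusted p = 0.094), 1.22 for Chl1 (adjusted p = 0.058).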

How the results depend on the processing

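In transgenic bulb the counts of 433 probe sets higher and 554 lower stayed within 1.5 times under the other median-type scalings, quantile normalization, the values as deposited, other floors and filters, a prior without a trend, array weights and a fit of the transgenic groups alone. Scaling to the bacterial controls gave 1435 higher and 64 lower, so 95.7% of calls were higher in place of 43.9%. With that scaling the difference between genotypes gave 1450 higher and 26 lower, and wildtype 4 higher and 78 lower. Requiring more than 2-fold left 141 and 30 in transgenic bulb, 141 and 65 for the difference, and 3 and 9 in wildtype. Without a filter wildtype had 8 higher and 16 lower. Without a trend it had 3 and 18, and the difference 185 lower. With array weights wildtype had 76 and 77, and the difference 459 lower. Leaving out each array in turn gave 320 to 467 higher and 326 to 631 lower in transgenic bulb, 199 to 294 and 151 to 449 for the difference, and 0 to 56 and 6 to 63 in wildtype. The wildtype count of 0 higher came without P23 array 12, and the lowest count of falls in transgenic bulb without P23 array 5 or 7. With bacterial control scaling the sign turned for the transgenic changes of Tubb5 (0.011), Cyc1 (0.020) and Atp5a1 (0.022) and for the differences between genotypes of Mbp (0.45) and Dnajb6 (0.087). With the mean over probe sets the difference of Grn turned to -0.21. Apart from what a setting itself removes, the cause was not tested. No paired analysis was possible because the array numbers are not shared between groups.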
